A study of Ovis aries with 19 samples.

Results

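The genes described here encode abundant proteins of blood plasma that the liver makes and secretes. They were chosen by name, and 10 were named: ALB, TTR, SERPINA1, HP, LBP, ITIH1, ITIH3, ITIH4, AMBP and CRP. Of these 10 genes, 9 were found among 28524 gene identifiers, and HP, the haptoglobin gene, was not analysed here. In liver 13640 genes had a mean normalized read count of at least 10, the filter for testing, and all 9 found genes were among them. In muscle 12966 genes passed, and ITIH4 was the 1 plasma protein gene among them.

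RNA was sequenced from liver and muscle of female sheep (Ovis aries). The treated animals had been exposed to excess testosterone before birth, and the control animals had not. Liver libraries came from 5 treated sheep (48, 63, 185, 233 and 255) and 4 control sheep (98, 131, 179 and 201), and muscle libraries from the same animals and from control sheep 132. Within a tissue each library was a separate animal, and no source used here gave the dose, the time of exposure, the breed or the age. Values are normalized read counts, which were scaled within each tissue and not for gene length, so levels are compared between libraries of 1 tissue and not between genes.

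Hepatocytes secrete most plasma proteins. Albumin carries fatty acids, hormones and bilirubin and holds the oncotic pressure of blood. During inflammation, cytokines such as interleukin-6 and interleukin-1 shift the liver from carrier proteins, the negative acute-phase proteins such as albumin and transthyretin, to positive acute-phase proteins such as haptoglobin and LBP. Haptoglobin and serum amyloid A are major acute-phase proteins of ruminants, while CRP is the classical one in humans. The inter-alpha-trypsin inhibitors consist of heavy chains, encoded by ITIH genes, and a light chain, bikunin, which is cut from the AMBP precursor.

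The liver libraries held 10236610 to 16046301 reads and the muscle libraries 8455563 to 14331578. The liver of control sheep 201 had reads in 20704 genes, and each other liver in 16852 to 18289. The cause of this difference was not tested. The 9 genes together held 4.54% to 10.7% of the reads in treated livers and 5.29% to 7.65% in control livers, and at most 0.0185% in any muscle library. Every 2 libraries of a group differed by more than counting noise (36 pairs, chi-square of at least 19.4 per degree of freedom). Summed hepatocyte markers, with none of the plasma protein genes above among them, had 1596635 to 1941394 in treated and 1079017 to 1980436 in control livers. Fibrinogen genes, which are also positive acute-phase genes, made up most of these sums. Of 1941394 in treated sheep 48, FGB gave 715955 and FGG 621127, and of 1079017 in control sheep 131, 315004 and 290465. The sums are therefore not a measure of hepatocytes apart from plasma protein RNA. No marker of any cell type list was at 0 in every liver library.

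No plasma protein gene passed the limma test of treated against control livers. At an adjusted p under 0.05, 0 of 9 genes passed, against 0.00733% of all genes tested, and 0 of 9 had an unadjusted p under 0.05, against 3.99% of all genes. By edgeR 0 of 9 passed, against 0.00733% of all genes, and by DESeq2 0 of 9, against 0.235%. At an unadjusted p under 0.05 there were 0 of 9 by edgeR, against 4.25%, and 0 of 9 by DESeq2, against 5.04%. Treated and control ranges overlapped for 9 of 9 genes, while for 1.54% of all genes they did not. Of the 9 differences, 7 lay above 0 and 2 below, with a median of 0.16 on the log2 scale, against 0.0032 for all genes tested. In bulk tissue, fewer cells of a type and less RNA per cell cannot be told apart.

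**Figure D1:**
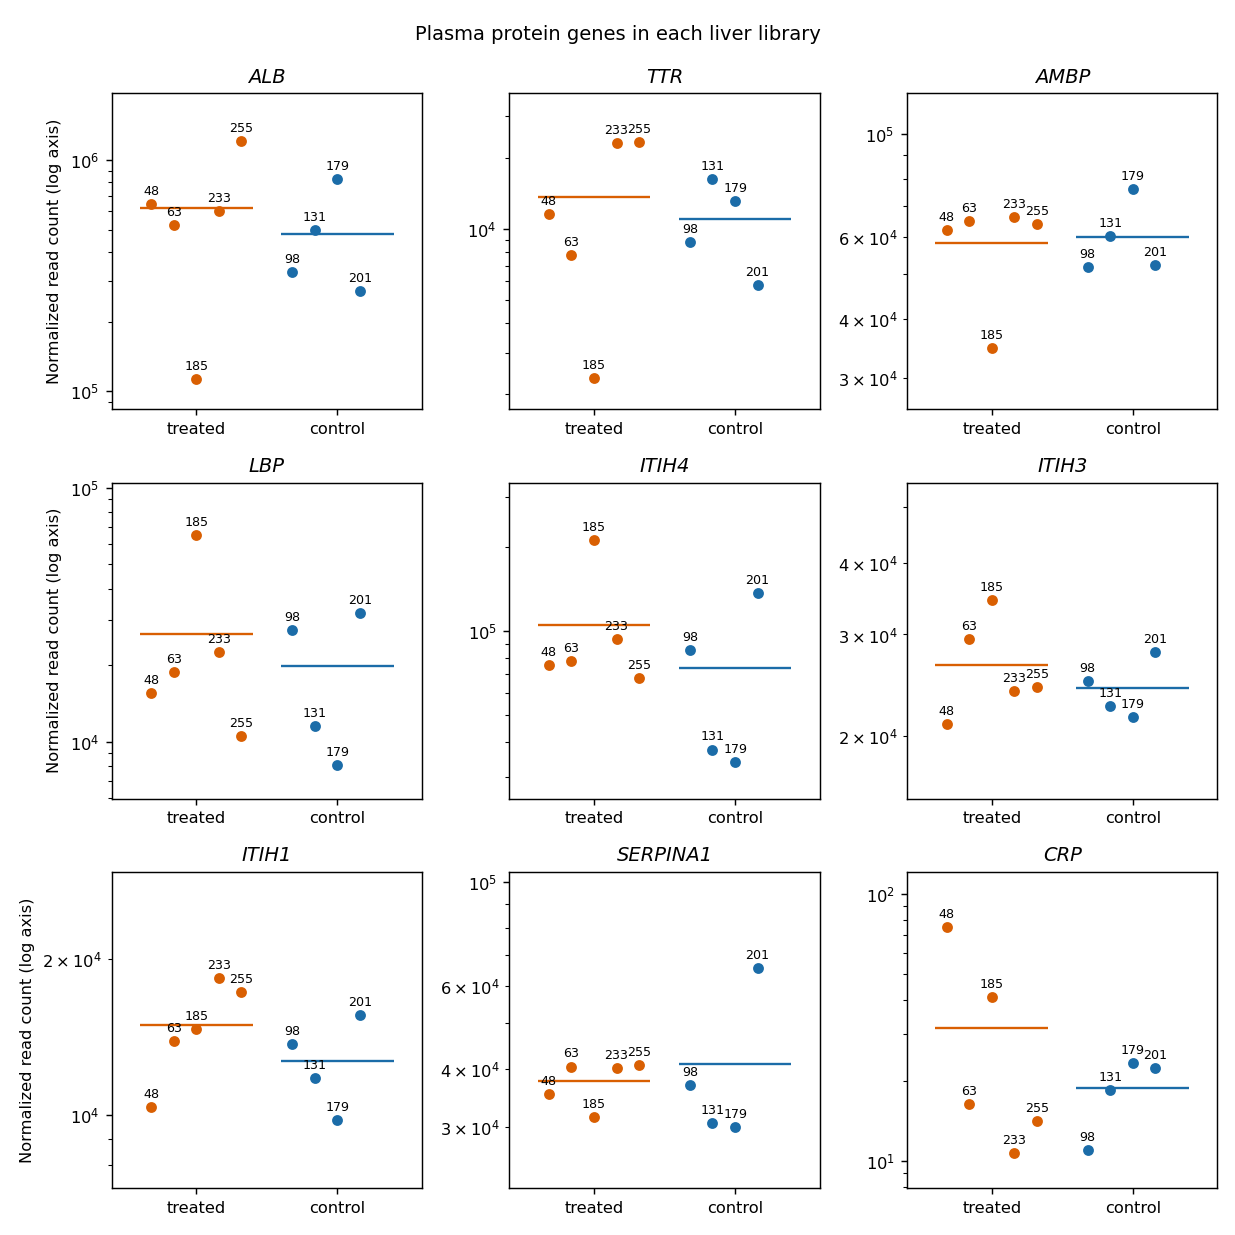
Normalized read count (log axis) of each plasma protein gene in liver, with 1 point per library labelled by sheep number, treated to the left of control, and a line at the mean of each group. The ranges of treated and control livers overlap in every panel, and treated sheep 185 is the lowest point for ALB, TTR and AMBP and the highest for LBP, ITIH4 and ITIH3.

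The carrier proteins come first. ALB, the albumin gene, had normalized read counts of 647104, 522369, 112956, 600740 and 1212104 in the livers of treated sheep 48, 63, 185, 233 and 255, against 326409, 498729, 824760 and 271833 in control sheep 98, 131, 179 and 201. The lowest and the highest library were both treated, sheep 185 and sheep 255, and the control livers lay between them. Means were 619055 ± 393165 (SD, n = 5) in treated and 480433 ± 249087 (SD, n = 4) in control livers, a log2 fold change of 0.16 ± 0.64 (SE; limma adjusted p = 0.999). The 95% interval of that difference ran from -1.24 to 1.56, which spans folds of 0.423 to 2.95. The direction rested on single livers: the log2 fold change was -0.17 without treated sheep 255 and -0.068 without control sheep 201. ALB took 1.01% of all reads in treated sheep 185 and 8.90% in treated sheep 255, against 2.37% to 6.20% in control livers.

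TTR encodes transthyretin, the carrier of thyroxine and of retinol-binding protein. In the same order of sheep it had 11546, 7765, 2331, 23106 and 23461 in treated livers, against 8820, 16316, 13136 and 5795 in control livers. Treated sheep 185 was again the lowest, treated sheep 233 and 255 were the highest, and the control livers lay within that range. The log2 fold change was 0.0031 ± 0.61 (SE; limma adjusted p = 0.999), with a 95% interval of -1.32 to 1.33. It lay below 0 without treated sheep 48, 233 or 255 and without control sheep 98 or 201, down to -0.30. With TMM scaling it was -0.018, while the median of all genes also moved, from 0.0032 to -0.018.

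AMBP encodes the common precursor of alpha-1-microglobulin, a heme-binding carrier, and of bikunin. It had 62036, 64947, 34635, 66330 and 63858 in treated livers, against 51755, 60411, 76240 and 52263 in control livers. Of the treated livers, 4 lay within a narrow band and sheep 185 far below it, lower than any control. The log2 fold change was -0.065 ± 0.31 (SE; limma adjusted p = 0.999), but 0.11 without treated sheep 185 and 0.055 without control sheep 179.

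LBP encodes lipopolysaccharide-binding protein, which hands bacterial lipopolysaccharide to CD14 and is an acute-phase protein. It had 15604, 18844, 65275, 22489 and 10512 in treated livers, against 27472, 11524, 8065 and 32028 in control livers. Treated sheep 185 had the highest count, and the other treated livers lay within the control range. Means were 26545 ± 22094 (SD, n = 5) in treated and 19772 ± 11756 (SD, n = 4) in control livers, and without sheep 185 the treated mean was 16862. The log2 fold change was 0.34 ± 0.54 (SE; limma adjusted p = 0.999), with a 95% interval of -0.84 to 1.52. It was -0.059 without treated sheep 185 and -0.013 without control sheep 179, so its direction rested on these libraries.

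ITIH4 encodes a heavy-chain relative that does not bind bikunin and is an acute-phase protein in the pig. It had 75645, 77707, 211416, 93548 and 67936 in treated livers, against 85680, 37656, 33950 and 136179 in control livers. Treated sheep 185 was the highest and control sheep 201 the next, while control sheep 131 and 179 lay below every treated liver. Means were 105250 ± 60074 (SD, n = 5) in treated and 73366 ± 48048 (SD, n = 4) in control livers. Its log2 fold change of 0.62 ± 0.49 (SE) was the furthest from 0 of the 9 genes and had the smallest unadjusted p, 0.228 (limma; adjusted p = 0.999), with a 95% interval of -0.44 to 1.68. Without 1 library it lay between 0.33 (without treated sheep 185 or control sheep 179) and 0.995 (without control sheep 201).

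ITIH3 and ITIH1 encode heavy chains that are joined to hyaluronan in the extracellular matrix. ITIH3 had 20983, 29404, 34443, 23893 and 24270 in treated livers, against 24908, 22546, 21564 and 27984 in control livers. Sheep 185 was the highest here too, but the lowest library was also treated, sheep 48. ITIH1 had 10373, 13923, 14632, 18403 and 17256 in treated livers, against 13739, 11784, 9761 and 15621 in control livers, with the 2 highest libraries treated and the lowest control. The log2 fold changes were 0.12 ± 0.26 (SE) for ITIH3 and 0.22 ± 0.26 (SE) for ITIH1, both with a limma adjusted p of 0.999. Both genes overlap NEK4, a kinase gene, in the NCBI gene table for the sheep assembly ARS-UI_Ramb_v3.0, and whether reads were counted by strand was not given, so part of their counts may belong to NEK4.

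SERPINA1 encodes alpha-1-antitrypsin, the inhibitor of neutrophil elastase. It had 35331, 40425, 31598, 40144 and 40744 in treated livers, against 36982, 30694, 30055 and 65686 in control livers. Control sheep 201 stood above all others, and the remaining 8 livers lay close together. The log2 fold change was -0.046 ± 0.30 (SE; limma adjusted p = 0.999), but 0.21 without control sheep 201 and 0.015 without treated sheep 185.

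CRP, the C-reactive protein gene, had few reads, 226 over all 9 livers. It had 75.5, 16.3, 41.2, 10.7 and 14.1 in treated livers, against 11.0, 18.4, 23.2 and 22.3 in control livers. Treated sheep 48 and 185 were above the control range, and the lowest library was treated as well. Means were 31.6 ± 27.4 (SD, n = 5) in treated and 18.7 ± 5.55 (SD, n = 4) in control livers, and without sheep 48 the treated mean was 20.6. The log2 fold change was 0.40 ± 0.55 (SE; limma adjusted p = 0.999), and without sheep 48 it was -0.0060.

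**Figure D2:**
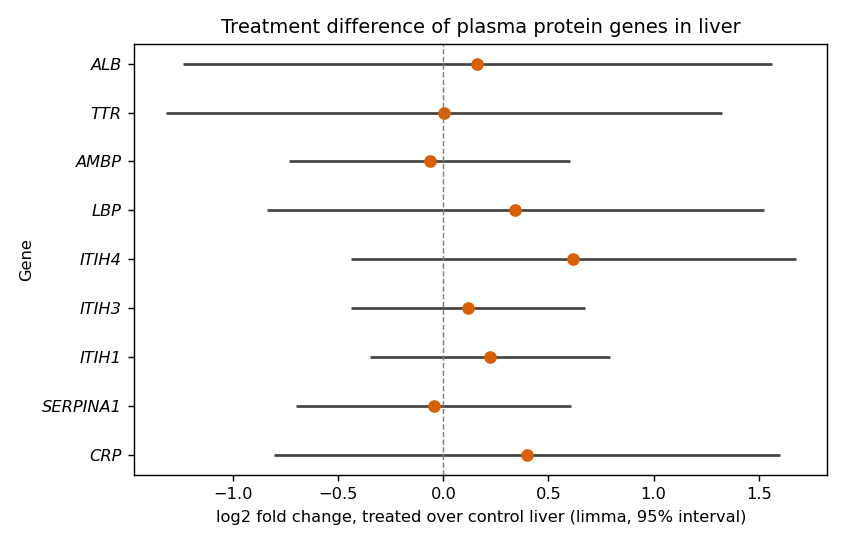
Log2 fold change of each plasma protein gene, treated over control liver, from limma on log2(normalized read count + 1), with bars for the 95% interval of the difference. Every bar crosses 0, and the bars of ALB and TTR are the widest, reaching beyond 1 in both directions.

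The 9 genes fell into a wide and a narrow set by how far single livers lay apart. The highest library exceeded the lowest by 10.7-fold for ALB, 10.1-fold for TTR, 8.09-fold for LBP, 7.05-fold for CRP and 6.23-fold for ITIH4. For AMBP the fold was 2.20, for SERPINA1 2.19, for ITIH1 1.89 and for ITIH3 1.64. The median gene tested had 2.90 on the scale of value + 1.

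The spread within groups gave the same division. Residual SDs on the log2 scale were 1.12 for TTR, 1.07 for ALB, 0.98 for LBP, 0.91 for CRP and 0.81 for ITIH4, against a median of 0.52 over all genes. They were 0.37 for SERPINA1, 0.35 for AMBP, 0.31 for ITIH1 and 0.24 for ITIH3. Among the 1353 genes with a liver mean of at least 1000, 3.47% had a larger SD than TTR, 4.21% than ALB, 5.99% than LBP and 11.2% than ITIH4. By contrast 71.5% had a larger SD than SERPINA1 and 92.1% than ITIH3.

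The counts of single livers are described next. Treated sheep 185 was the highest library for 3 of the 9 genes (LBP, ITIH3 and ITIH4) and the lowest for 3 others (ALB, TTR and AMBP). Over all genes tested it was the highest for 16.9% and the lowest for 13.6%. Control sheep 179 had the lowest count for 4 genes (SERPINA1, LBP, ITIH1 and ITIH4) and the highest for AMBP. Over all genes tested it was the lowest for 16.1% and the highest for 19.2%.

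The ratio of ALB reads to LBP reads within a library does not depend on the scaling. It was 41.5, 27.7, 1.73, 26.7 and 115 in treated sheep 48, 63, 185, 233 and 255, against 11.9, 43.3, 102 and 8.49 in control sheep 98, 131, 179 and 201. The ends of this 66.6-fold range were the treated sheep 185 and 255, and without sheep 185 the range was 13.6-fold. ALB reads per ITIH4 read were 8.55, 6.72, 0.534, 6.42 and 17.8 in treated livers, against 3.81, 13.2, 24.3 and 2.00 in control livers. In sheep 185 the liver held fewer reads of ALB than of ITIH4, and in each other liver more.

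**Figure D3:**
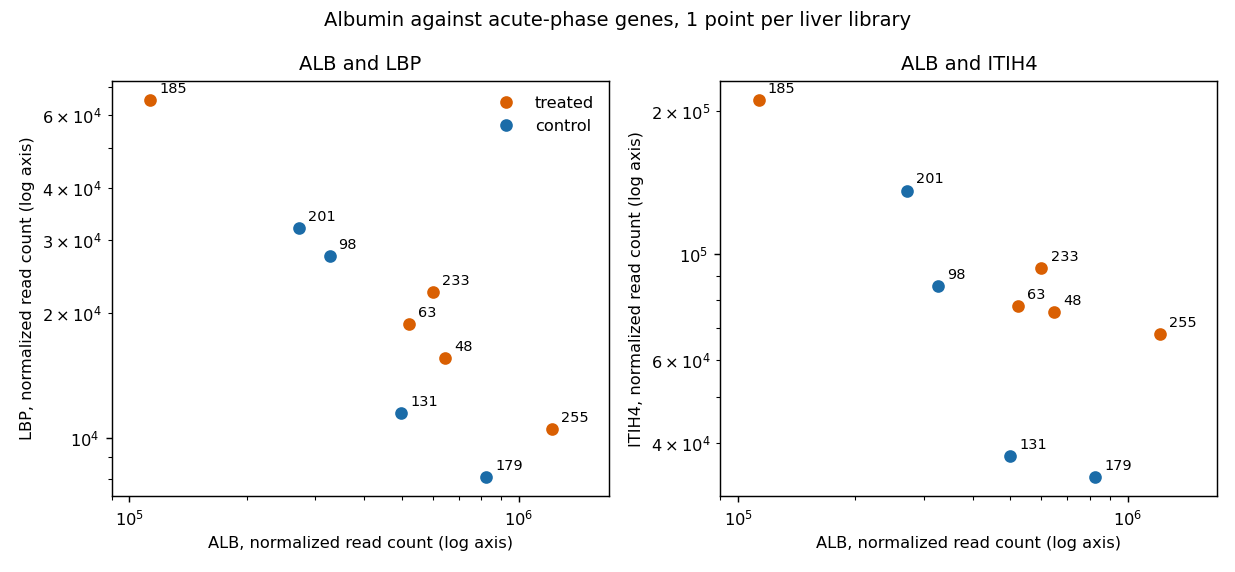
Normalized read count of ALB against that of LBP (left) and of ITIH4 (right), both axes logarithmic, with 1 point per liver library labelled by sheep number. Treated sheep 185 is at the top left and control sheep 179 and treated sheep 255 are towards the bottom right, with treated and control points mixed between them.

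Pearson's r of log2(value + 1) was computed for all 36 pairs of the 9 genes over the 9 livers, with exact two-sided permutation p-values adjusted over the 36 pairs by Benjamini-Hochberg. At an adjusted p under 0.05, 13 pairs passed, 6 positive and 7 negative. The smallest |r| among them was 0.765, and 11.0% of all pairs of genes tested had an |r| at least as large. The closest pair was LBP and ITIH4, with r = 0.94 (n = 9, exact permutation adjusted p = 0.00367) and Spearman's rho = 0.967 (n = 9, exact permutation adjusted p = 0.00595). ALB and LBP had r = -0.91 (n = 9, exact permutation adjusted p = 0.0119) and rho = -0.867 (n = 9, exact permutation adjusted p = 0.0812). By Spearman's rho, LBP and ITIH4 was the 1 pair that passed.

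The carriers were positively related to one another, with r = 0.90 for ALB and TTR, 0.91 for ALB and AMBP and 0.83 for TTR and AMBP. LBP, ITIH3 and ITIH4 were too, with r = 0.81 for LBP and ITIH3 and 0.79 for ITIH3 and ITIH4. Between these 2 sets of 3 genes the r was -0.89 for LBP and AMBP, -0.80 for TTR and LBP, -0.80 for TTR and ITIH3, -0.81 for ITIH4 and AMBP, -0.77 for ITIH3 and AMBP and -0.77 for ALB and ITIH3. ALB and ITIH4 had r = -0.75 (n = 9, exact permutation adjusted p = 0.0549) and did not pass. It passed as deviations from the group means, with r = -0.86 (n = 9, exact permutation adjusted p = 0.0125). CRP, SERPINA1 and ITIH1 were in no pair that passed, and CRP had r = 0.15 with LBP, 0.19 with ITIH4 and -0.25 with ALB.

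These correlations rested on few livers. Without treated sheep 185 none of the 36 pairs passed, and without control sheep 201 there was 1. Without control sheep 98 there were 7, without control sheep 131 there were 6 and without control sheep 179 there were 7. Over every run without 1 liver the number ranged from 0 to 12. The r of LBP and ITIH4 lay between 0.888 and 0.969 in these runs, with a highest exact permutation adjusted p of 0.0531. Without the 2 livers farthest from the median of the first gene of each pair, 0 of 13 pairs passed, with |r| between 0.369 and 0.941. At an unadjusted exact p under 0.05 there were 3 of the 13 (ALB and LBP, ALB and AMBP, LBP and ITIH4). Each of the 13 pairs kept the sign of r without those 2 livers and without each liver in turn. With r taken over deviations from the group means, 3 of the 36 pairs passed: ALB and LBP, LBP and ITIH4, and ALB and ITIH4, which is not among the 13. The r of the 13 pairs was of similar size there, from -0.77 for ITIH3 and AMBP to 0.95 for LBP and ITIH4. Those that did not pass had exact permutation adjusted p-values from 0.0531 (ALB and TTR) to 0.065 (TTR and AMBP). For the deviations, libraries were permuted only within each group, which gives fewer orders.

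**Figure D4:**
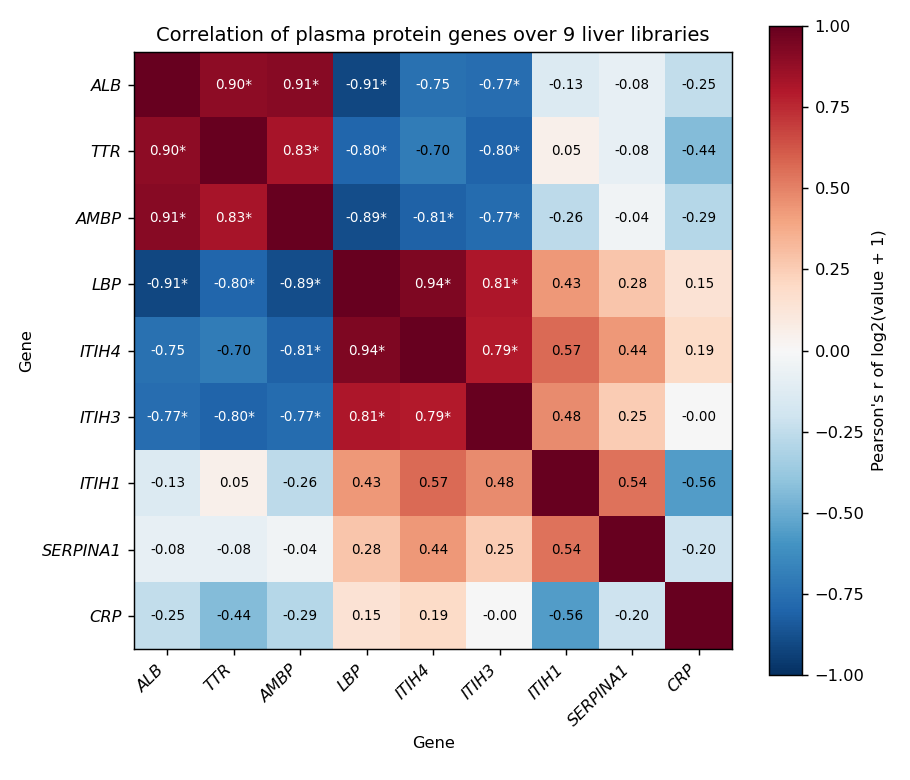
Pearson's r of log2(normalized read count + 1) for each pair of plasma protein genes over the 9 liver libraries, in colour and in figures. ALB, TTR and AMBP form a positive block, LBP, ITIH4 and ITIH3 form another, and the values between the blocks are negative.

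Much of the liver transcriptome varied along the same order of livers. A principal component analysis of the other 13631 genes put 40.9% of the variance on its first component, with scores of 69.5 for treated sheep 185, 49.7 for control sheep 98 and 40.4 for control sheep 201 at one end. At the other end were treated sheep 255 with -74.0, control sheep 179 with -62.0 and treated sheep 48 with -35.3. The r with that component was -0.92 for ALB, -0.79 for AMBP and -0.70 for TTR, and 0.89 for LBP, 0.70 for ITIH4 and 0.67 for ITIH3. It was 0.30 for ITIH1, 0.20 for SERPINA1 and -0.044 for CRP. With the log2 of total reads the r was 0.42 or less in size for each gene. An |r| of at least 0.765 was reached with ALB by 26.6% of all genes tested and with LBP by 24.6%, but with SERPINA1 by 0.719% and with CRP by 0.337%.

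Markers of other cell types gave the following values beside these results. Summed neutrophil markers were 240 in treated sheep 185, the highest of all livers, with 45.5 to 169.5 in the other treated livers and 58.1 to 180 in control livers. Summed macrophage markers were 6263 in sheep 185, within 2649 to 7335 over treated and 2722 to 6187 over control livers. Summed cholangiocyte markers were 2232 to 8690 in treated and 257 to 2433 in control livers, and summed T and NK cell markers were 389 to 770 in treated and 303 to 487 in control livers. Of the 6 cholangiocyte markers tested, 2 had a log2 fold change above 0, and the median of the 6 was -0.15. The higher cholangiocyte sums in treated livers thus did not hold across that list. Summed endothelial markers were 4493 in treated sheep 185, 4538 in control sheep 98 and 4789 in control sheep 201, the 3 highest livers, and 1997 in treated sheep 255, the lowest, with 1997 to 4493 over treated and 2905 to 4789 over control livers. Summed stellate cell and fibroblast markers were 3215 to 5723 in treated and 3779 to 5369 in control livers. Summed B and plasma cell markers were 633 to 1307 in treated and 418 to 1853 in control livers, and summed erythroid markers 1.09 to 30.3 in treated and 9.70 to 20.7 in control livers. Summed adipocyte markers were 102 to 302 in treated and 220 to 519 in control livers, and summed skeletal muscle markers 27.1 to 49.5 in treated and 58.2 to 161 in control livers. All 10 T and NK cell markers tested had a log2 fold change above 0, with a median of 0.44. Of 4 adipocyte and 3 skeletal muscle markers tested, 0 had a log2 fold change above 0, with medians of -1.07 and -1.17. None of these genes passed limma, and 1 skeletal muscle marker passed by DESeq2. The part of such cells in the results above was not tested.

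The genes most like each plasma protein gene over the 9 livers were taken by Pearson's r, as a description. For ALB these were GALM, an enzyme of galactose metabolism, with r = 0.987 and PTGR1, a prostaglandin reductase gene, with r = 0.981. For LBP they were PLXNB1, a plexin receptor gene, with r = 0.989 and IQCE with r = 0.983. For ITIH4 they were SH2B2, an adaptor of receptor tyrosine kinases, with r = 0.970 and PDIA5, a disulfide isomerase of the endoplasmic reticulum, with r = 0.956.

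AMBP was most like TM4SF1 (r = 0.980) and DMGDH, a mitochondrial enzyme of choline breakdown (r = 0.975). TTR was most like LOC101122788 (r = 0.981) and LOC101109633 (r = 0.972), and ITIH3 like LOC114115339 (r = 0.979) and THSD1 (r = 0.945). The values were lower for the genes of no called pair. ITIH1 was most like GRAMD1B, a cholesterol transporter gene (r = 0.899), and F2, the prothrombin gene (r = 0.896). SERPINA1 was most like BCDIN3D (r = 0.901) and ST6GALNAC6 (r = 0.892), and CRP like LOC101111915 (r = 0.921) and BLM, a DNA helicase gene (r = 0.906). Such pairs share the same 9 libraries, and the likest of all genes tested is high by choice.

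Other genes of the plasma proteome were read from the same limma fit. Of 30 positive acute-phase and opsonin genes, 18 were tested. SAA1, SAA2, SAA3, SAA4, ORM1, ORM2, SERPINA3, A2M and C3 were not found by name, and PTX3, PTX4 and APCS did not reach the filter. Serum amyloid A and haptoglobin, named above as major in ruminants, were thus not assessed. None passed. At an unadjusted p under 0.05, 1 was higher in treated livers, against 1.82% of all genes, and none lower, against 2.17%. The median log2 fold change was 0.22, against 0.0032 over all genes. That gene was SERPINA10, the inhibitor of coagulation factor Xa that acts with protein Z, with 6530 ± 2155 (SD, n = 5) in treated and 3430 ± 418 (SD, n = 4) in control livers. Its log2 fold change was 0.87 ± 0.28 (SE; limma adjusted p = 0.910), and every treated liver was above every control. Treated livers lay wholly above control livers for 0.858% of all genes tested, and wholly below for 0.682%. FGL1, a fibrinogen-related hepatokine, averaged 74037 in treated and 46795 in control livers, and C4BPA, the C4b-binding complement regulator, 24724 in treated and 16971 in control livers, with overlapping ranges.

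Of 21 carrier and transport proteins of plasma, 18 were tested and none passed. At an unadjusted p under 0.05, 1 was lower, against 2.17% of all genes, and none higher, against 1.82%. The median log2 fold change was 0.021, against 0.0032 over all genes. The lower one was IGFALS, the acid-labile subunit that holds insulin-like growth factors in plasma, with a mean of 139 in treated and 288 in control livers (limma adjusted p = 0.999). SHBG, the sex hormone-binding globulin gene, averaged 685 in treated and 1010 in control livers, and AFM, the vitamin E carrier afamin, 7298 in treated and 5317 in control livers. For IGFALS, SHBG and AFM the ranges overlapped.

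The carrier list was also read by single livers. Treated sheep 185 had the lowest count for 12 of the 18 carriers tested, against 13.6% of all genes. Treated sheep 255 had the highest for 8 of the 18, against 17.1% of all genes. HPX, the heme carrier hemopexin, went the other way and was highest in sheep 185, with 81043. TF had 120581 in sheep 185, below only treated sheep 255 with 132305. AFM, RBP4, CP and IGFALS also had their lowest count in a liver other than sheep 185. In the positive acute-phase list, which also holds HPX, sheep 185 was highest for 5 of its 18 genes and lowest for 3, and sheep 255 was highest for 6. The 5 were HPX, LRG1, FGA, the fibrinogen alpha chain gene, LCN2, the siderophore-binding lipocalin gene, and IL1RN, the interleukin-1 receptor antagonist gene. The 3 lowest in sheep 185 were C9, ITIH2 and VNN1. The genes of the other fibrinogen chains were highest elsewhere, FGB in treated sheep 48 and FGG in control sheep 179.

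Of 18 protease inhibitors of plasma, chosen without the plasma protein genes above, 12 were tested and none passed. With an unadjusted p under 0.05 there was 1 higher (SERPINA10, above), against 1.82% of all genes, and none lower, against 2.17%. The median was 0.076, against 0.0032 over all genes. SERPINA10, SERPING1, ITIH2, AHSG and KNG1 are also in the acute-phase or carrier lists, so these lists are not independent. SERPIND1, heparin cofactor II, averaged 2914 in treated and 4280 in control livers, and ITIH5, a heavy chain gene active mainly outside the liver, 44.1 in treated and 28.1 in control livers. For SERPIND1 and ITIH5 the ranges overlapped (limma adjusted p = 0.999). Sheep 185 was the lowest library for 7 of the 12, against 13.6% of all genes, but ITIH2, AHSG and KNG1 among the 7 were already counted above.

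Of 34 ligands, receptors and signalling genes of the acute-phase response, 29 were tested and none passed. At an unadjusted p under 0.05 there was 1 higher, against 1.82% of all genes, and 1 lower, against 2.17%. The median was 0.067, against 0.0032 over all genes. IL1R1, the interleukin-1 receptor gene, averaged 4256 ± 3227 (SD, n = 5) in treated and 1624 ± 321 (SD, n = 4) in control livers, with 8699 in treated sheep 233 and 6653 in treated sheep 185 and overlapping ranges (limma adjusted p = 0.999). CREB3L3, a membrane-bound factor that drives acute-phase genes in the mouse, averaged 3178 ± 912 (SD, n = 5) in treated and 5842 ± 664 (SD, n = 4) in control livers. Its log2 fold change was -0.91 ± 0.24 (SE; limma adjusted p = 0.865), and every treated liver lay below every control. Of all genes tested, 0.682% had every treated liver below every control. PIAS3, an inhibitor of STAT3, averaged 81.5 in treated and 113 in control livers, with overlapping ranges (limma adjusted p = 0.999). IL6, OSM, LIF and SOCS1 did not reach the filter.

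The 18 hepatocyte transcription factors of plasma protein genes were all tested, and none passed. At an unadjusted p under 0.05, 1 was higher, against 1.82% of all genes, and none lower, against 2.17%. The median was -0.057, against 0.0032 over all genes. NFIL3, a repressor of D-box genes that cytokines induce, averaged 820 ± 437 (SD, n = 5) in treated and 358 ± 71.9 (SD, n = 4) in control livers, with every treated liver above every control. Its log2 fold change was 1.06 ± 0.34 (SE; limma adjusted p = 0.910). Of all genes tested, 0.858% had every treated liver above every control. FOXA2, a pioneer factor of hepatocyte genes, averaged 187 in treated and 304 in control livers, and CEBPA, a factor of the ALB promoter, 83.0 in treated and 128 in control livers. For FOXA2 and CEBPA the ranges overlapped (limma adjusted p = 0.999), and control livers ran from 56.4 to 179 for CEBPA.

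In muscle the plasma protein genes were near silent, with ITIH4 the exception. The other 8 genes had 166 reads in all over the 10 muscle libraries, against 8522 of ITIH4, and no value above 16.4. ALB had 28 reads in treated and 16 in control muscle, of which 18 lay in treated sheep 233 and 15 in control sheep 131. ITIH3 had 47 reads in treated and 21 in control muscle, and SERPINA1 had 10 and 12. ITIH1 had 9 and 4 reads, AMBP 7 and 0, CRP 3 and 4, LBP 3 and 0 and TTR 1 and 1. All 7 AMBP reads were in treated sheep 233, and 9 of the 12 control SERPINA1 reads were in control sheep 131. No fold or test is given for counts this low.

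ITIH4 had 1626, 865, 525, 917 and 1174 in the muscle of treated sheep 48, 63, 185, 233 and 255, against 595, 633, 513, 699 and 808 in control sheep 98, 131, 132, 179 and 201. Of the treated libraries 4 lay above every control, and sheep 185, the highest in liver, was the lowest treated library in muscle, within the control range. Means were 1021 ± 409 (SD, n = 5) in treated and 650 ± 111 (SD, n = 5) in control muscle. The log2 fold change was 0.57 ± 0.24 (SE) with a 95% interval of 0.052 to 1.09 and an unadjusted p of 0.0334, and it did not pass the adjustment (limma adjusted p = 0.309). By edgeR the adjusted p was 0.246 and by DESeq2 0.137. In muscle 0.00771% of genes passed limma, 0.00771% edgeR and 2.0% DESeq2, and 14.4% had an unadjusted limma p under 0.05.

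ITIH4 lies next to MUSTN1, a gene active in the musculoskeletal system, in the NCBI gene table, followed by ITIH3, NEK4 and ITIH1. MUSTN1 averaged 5437 ± 2124 (SD, n = 5) in treated and 4840 ± 1081 (SD, n = 5) in control muscle. In liver it had 361 to 1276 in treated and 34.3 to 2362 in control sheep. Over the 10 muscle libraries ITIH4 and MUSTN1 had r = 0.57 (n = 10, permutation p = 0.0875, 0.175 adjusted over 4 such relations) and rho = 0.58 (permutation p = 0.0886), and r = 0.43 without the 2 farthest libraries. MUSTN1 was chosen after its values were seen, and whether reads of one gene were counted for the other was not tested.

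**Figure D5:**
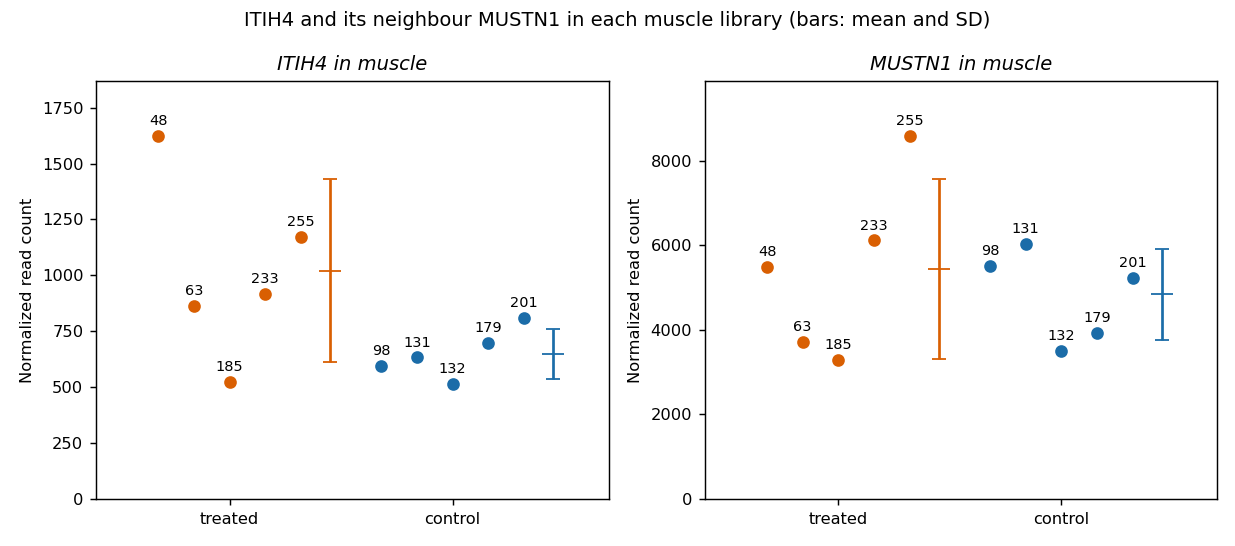
Normalized read count of ITIH4 (left) and of its neighbour MUSTN1 (right) in muscle, with 1 point per library labelled by sheep number, treated to the left of control, and bars for the mean and SD of each group. For ITIH4 all treated points except sheep 185 lie above the control points, and for MUSTN1 treated and control points are mixed.

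The treatment differences of ITIH4 in liver and muscle were compared in 1 fit of all libraries. Its log2 fold change in liver exceeded that in muscle by 0.05 (limma adjusted p = 0.997), and this did not pass. The sign turned without the liver library of treated sheep 185 (-0.24), control sheep 131 (-0.19) or control sheep 179 (-0.24), and without the muscle library of treated sheep 185 (-0.17) or control sheep 201 (-0.036). Of the 11697 genes tested in both tissues 0.00855% passed.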

How the data were processed

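RNA of liver (9 libraries) and muscle (10) was sequenced from TruSeq libraries, per the labels' protocols. The submitters' processing notes name Trimmomatic, STAR and featureCounts 1.6.1. Genome build, annotation and strandedness are not given in the sources used here, so no coordinates are printed. As deposited, the values are a signal: the authors' read counts per gene divided by a size factor. Of these, 100% came out as whole reads within 0.01 read, and the median of ratios within each tissue gave back the scaling within a relative 5e-10.

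Genes averaging 10 or more in a tissue were tested on log2(value + 1) with limma 3.58.1 (R 4.3.3, mean-variance trend, Benjamini-Hochberg threshold 0.05); fold changes on that scale understate the change of low genes. edgeR 4.0.16 and DESeq2 1.42.0 on recovered reads were alternatives, as were pseudocounts of 0.25 and 4, a filter at 50 or none, other scalings, array weights, a block by sheep and each library left out. HP was not found by name, so 36 pairs were tested in place of 45. The named genes were the 10 plasma protein genes, up to 3 of each list with the smallest p, and up to 2 with the largest r. Members, lists and rule were chosen with earlier results of these data known. The sheep number pairs the tissues, being the same animal: the median correlation of deviations from group means was 0.177 within a sheep, against -0.0194 between sheep. The procedure was also run on simulated data, and the outcome of that run is not given here.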

Additional observations from a re-analysis of the deposited data

Results flagged for a closer look

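Of 66 groups of values, 15 held a library far from the rest of its group. For normally distributed values the rule flags about 1 in 20 groups. Counts of a few reads are not so distributed, and 1 nonzero value among zeros is always flagged. The 15 are therefore not to be read as an excess over chance. In treated liver sheep 185 stood apart with 65275 for LBP (next 22489), 211416 for ITIH4 (next 93548) and 34635 for AMBP (next 62036). In control liver sheep 201 stood apart with 2362 for MUSTN1 (next 102) and sheep 131 with 7339 for AFM (next 4714).

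In muscle the far values were of a few reads each. In treated muscle they were 0.971 for TTR (sheep 255), 3.41 for ITIH1 and 5.96 for AMBP (both sheep 233) and 2.43 for CRP (sheep 63). In control muscle they were 16.2 for ALB, 1.08 for TTR and 9.74 for SERPINA1 (all sheep 131), 4.10 for ITIH1 and 16.4 for ITIH3 (both sheep 201) and 0 for CRP (sheep 179).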

How the results depend on the processing

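None of the 9 genes was called in liver under any alternative run. The 1 gene called in liver became 0 at a mean of at least 50, 2 with array weights and 32 by DESeq2, and stayed at 1 without each library. In muscle 1 gene became 0 with a pseudocount of 0.25 or a mean of at least 50, 259 by DESeq2 and 80 when scaled by the reads outside the plasma protein genes, which moved the median of all genes from -0.013 to 0.19; without 1 library there were 0 to 4. In place of 13 of the 36 pairs, 3 passed as deviations from group means, 0 without the 2 farthest livers and 0 to 12 without 1 liver, a setting added after seeing the data, as were the group means without 1 library. The cause was not tested. Signs turned for TTR (-0.018 with TMM, -0.10 by reads outside these genes) and AMBP (0.093 with array weights). These 2 scalings moved the median of all genes in liver from 0.0032 to -0.018 and -0.099, so TTR moved with the median. Without 1 library the log2 fold change ran from -0.17 to 0.69 for ALB, -0.30 to 0.54 for TTR, -0.17 to 0.21 for SERPINA1, -0.059 to 0.65 for LBP, -0.13 to 0.11 for AMBP and -0.0060 to 0.67 for CRP, and for ITIH4 in liver minus muscle from -0.24 to 0.42. CRP has no value at a mean of at least 50. With the sheep as a block, which pairs the tissues, the ITIH4 difference was 0.06 and 1 gene passed, as without the block; that count was 0 with a pseudocount of 4 and 0 to 2 without 1 library. Depth limits CRP in liver and all but ITIH4 in muscle.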
